A study of Danio rerio with 3 samples.

Results

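Zebrafish larvae that carried oncogenic HRASV12 in the fli1 lineage were compared with wild-type larvae across the whole measured transcriptome. The comparison took in every gene identifier whose corrected total reads, added over the HRAS and the control library, came to at least 50, which was 20873 of the 27882 identifiers in the tables. At that limit lay 41 genes with exactly 50 reads, and 47 genes with 49 reads were left out just under it. Both groups were whole larvae of the AB background taken at 3 days post fertilization, and each group was 1 library made from RNA of whole larvae. The control was wild type. The HRAS larvae carried the driver Tg(fli1ep:GAL4FF)ubs3 and the responder Tg(UAS:eGFP-HRASV12)io006. Another library, with the same driver and tg(UAS:NICD)kca3, entered the scaling factors and is quoted beside some values. Its values and those of HRAS are set against the same control, so where both stand away from it to a like degree, a control library that stands apart and an effect of either line cannot be told apart. The study asked what the oncogene does when its expression is targeted to the endothelium.

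In this design GAL4 made from the fli1 promoter binds the UAS sequence and switches on HRASV12 fused to eGFP. RAS proteins are switches that relay growth factor signals when bound to GTP, and the V12 form stays in that active state, which feeds the RAF, MEK and ERK kinases and, downstream of them, AP-1 transcription factors such as FOS and JUN. The fli1 promoter is active in the endothelium of blood and lymph vessels, and fli1 reporters in zebrafish are also known to label neural crest derivatives in the pharyngeal arches. The control was not labelled with a driver, so an effect of GAL4FF and an effect of HRASV12 cannot be told apart. The sources used here do not give how many larvae went into each library. In RNA of whole larvae, fewer cells of a type and less RNA per cell cannot be told apart either.

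With 1 library in each group no difference has a replicate check, and no p-value is given: the comparison is between these libraries and not between the genotypes at large. Levels are in CPM, the scaled corrected reads of a gene per 1000000 reads, and a fold is the HRAS level over the control level. Each range in parentheses after a fold is a 95% Clopper-Pearson interval and leaves out any variation between larvae. A gene was called higher or lower where it differed at least 2-fold and this interval excluded 1. The control library held 26384466 corrected reads and the HRAS library 41105619, and close to the same share of them was unique, 50.9% and 50.3%. Markers of the expected organs were present in both libraries: the keratin gene krt4 had 16100 and 17000 CPM in control and HRAS, the muscle creatine kinase gene ckma 4540 and 4880, the globin gene hbae3 1390 and 1560, the apolipoprotein gene apoa1a 2900 and 3010, and ELAVL3, a pan-neuronal gene, 175 and 138. None of these 5 was called. The gene HRAS itself had 907 and 1542 reads, a fold of 1.08 (0.999 to 1.18). The transgene is a human sequence that may not be counted under this gene, and the label is not checked by it.

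Most of the transcriptome stood close to the control level. Of the measured genes 15716, or 75.3%, differed by less than 1.5-fold, and the median log2 ratio was 0.00. Called higher were 1272 genes (6.09%), of which 291 reached 4-fold, and called lower were 865 (4.14%), of which 134 did. The called genes were unevenly spread over expression levels: among genes with at least 50 but under 200 reads 15% were higher and 10.3% lower, whereas among the 391 genes with 20000 reads or more 2.05% were higher and 2.81% lower. Summed over the genes called higher, the level was 10500 CPM in the control and 28900 CPM in HRAS. Summed over the genes called lower it was 27100 and 9640 CPM. The share of the library held by the changed genes was therefore a few percent in either direction.

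**Figure D1:**
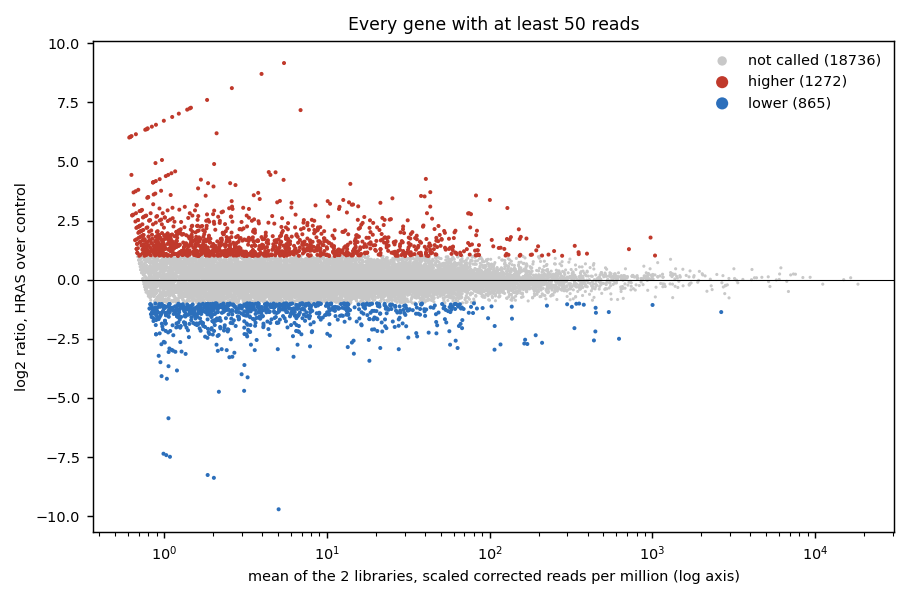
Each point is 1 of 20873 genes, with its mean level in the control and HRAS libraries (CPM, log axis) against its log2 ratio of HRAS over control. The 1272 genes called higher are red and the 865 called lower are blue, and the diagonal rows at the left edge are genes with few or no reads in one library.

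The count of unique reads, which leaves out every read that could be assigned in several ways, was used as a check. These reads come from the same libraries and enter the corrected count too, so the check is not independent. For genes with unique reads only, such as KDR and DUSP5, both counts are the same. Of the genes called higher, 883 had at least 50 unique reads in both libraries together; all 883 kept their direction on unique reads and 829 (93.9%) were called higher again. Of the genes called lower, 619 had as many unique reads, 617 kept their direction and 571 (92.2%) were called lower again. The remaining 389 higher and 246 lower genes had fewer than 50 unique reads, and the check does not cover them. Whether they had few reads in all or mostly reads shared with other transcripts was not tested.

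**Figure D2:**
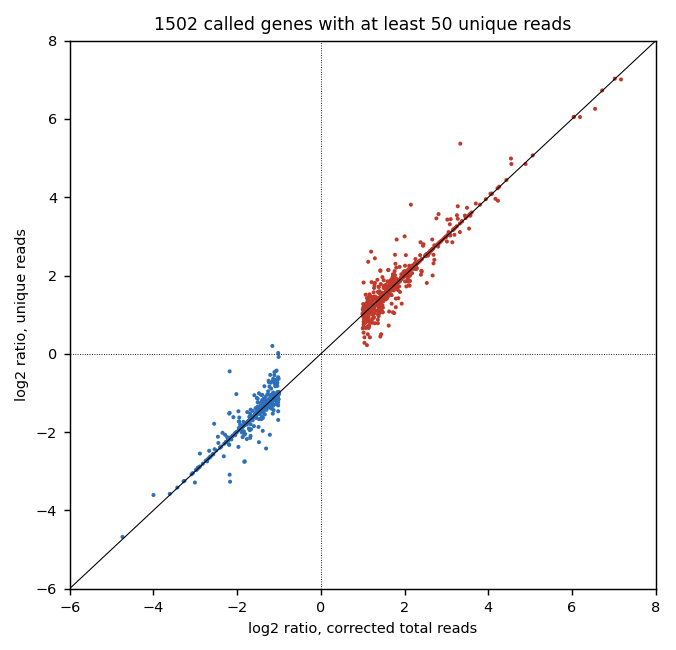
Log2 ratio of HRAS over control from corrected total reads (horizontal axis) against the same ratio from unique reads (vertical axis) for the 1502 called genes with at least 50 unique reads, red where called higher and blue where called lower. The points lie along the line of equality, and 2 of the genes called lower lie at or above 0 on unique reads.

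Tissue programs were described with 57 gene lists, which held 1971 measured identifiers, 204 of them higher and 134 lower. The 7 highest medians, from 1.07 to 0.68, belonged to the lists of neutrophils, scavenger endothelium, macrophages, endothelial junctions, ERK-responsive genes, cytokines and interferon. The other 3 vessel lists had medians of 0.33, 0.26 and 0.17, and the lists of the retina and lens had the lowest. Between these, lists for the proteasome, the circadian clock, fast muscle and kidney stood near 0. In each count below, the share of all genes called higher (6.09%) or lower (4.14%) is the background.

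**Figure D3:**
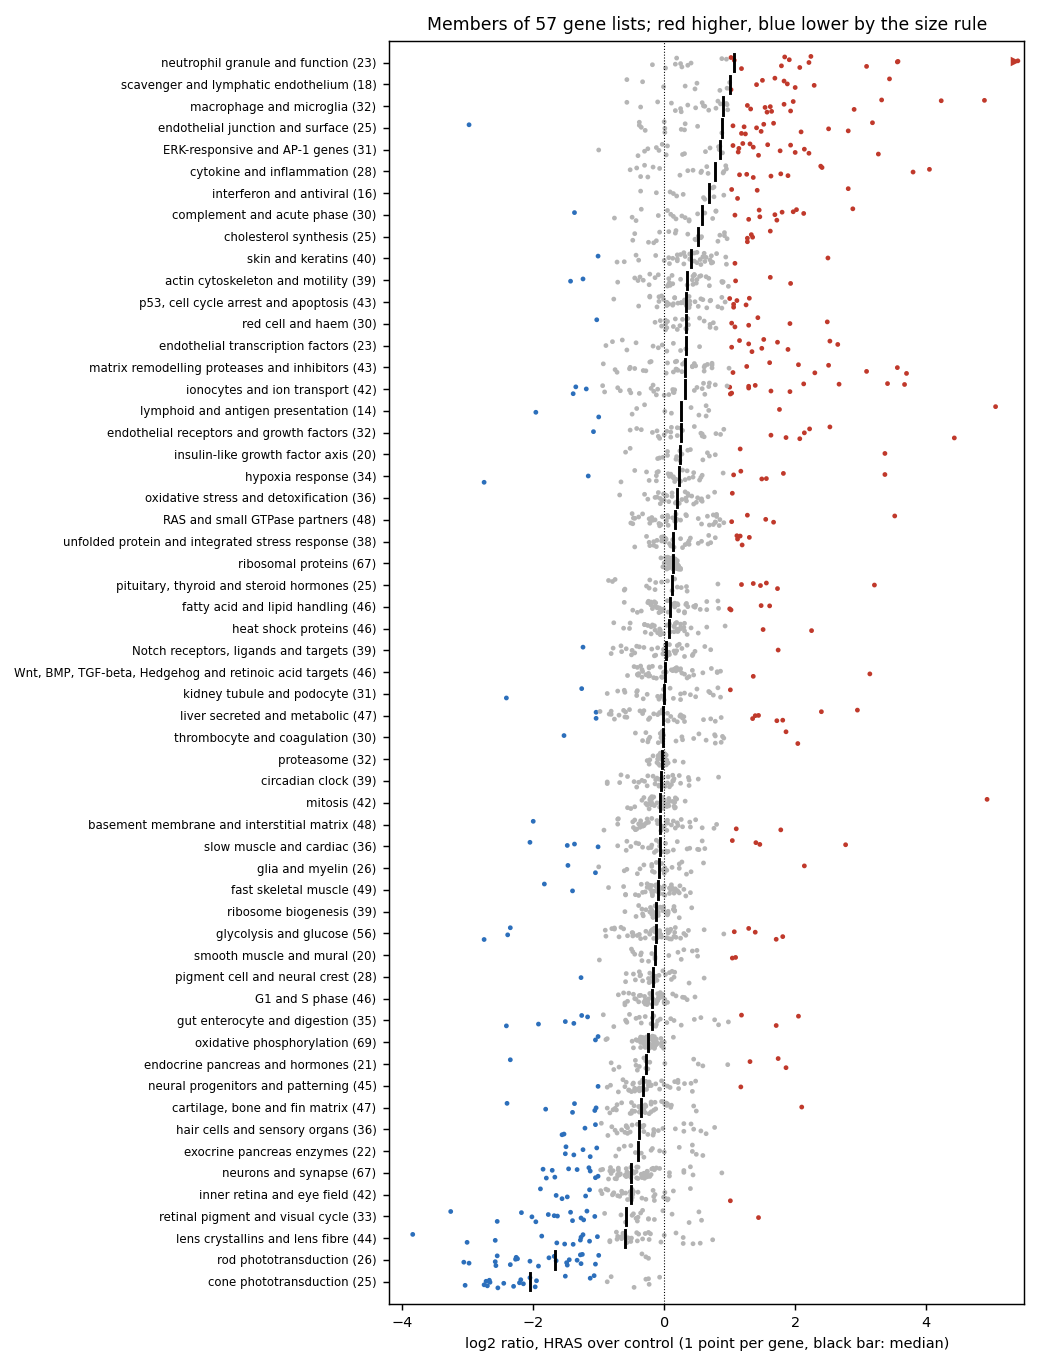
Each row is 1 of 57 gene lists with its number of measured members, each point is a member at its log2 ratio of HRAS over control, and the black bar is the list median. Medians run from 1.07 for neutrophil genes at the top to -2.05 for cone phototransduction at the bottom; alox5b.2, with a log2 ratio of 8.10, is drawn as a triangle at the right edge.

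Of 23 measured transcription factors of the endothelium 10 were higher and none was lower, while 8 lay below 0 and the median log2 ratio was 0.33. The gene etsrp, an ETS factor at the head of the vascular program in zebrafish, had 122 reads in the control and 1206 in HRAS, that is 4.65 and 29.3 CPM, a fold of 6.29 (5.23 to 7.66), and all of its reads were unique. ELK3, an ETS factor that is itself phosphorylated by ERK, went from 20.9 to 77.8 CPM, a fold of 3.72 (3.4 to 4.08). The gene sox18, a SOXF factor of vessels and early lymphatics, went from 6.94 to 23.1 CPM, a fold of 3.33 (2.84 to 3.93). SOX7, of the same family, was higher by only 2.04-fold (1.77 to 2.37). Against these, the flow-responsive factor klf2a had 50.4 CPM in the control and 27.3 in HRAS, a fold of 0.541 (0.499 to 0.586) that did not reach the size rule.

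Receptors and growth factors of vessels had 7 of 32 members higher, 1 lower and 9 below 0, with a median of 0.26, or 0.14 on unique reads. KDR, a receptor for VEGF, had 403 and 2300 reads, 15.4 and 55.9 CPM, a fold of 3.64 (3.28 to 4.06). The angiopoietin receptor gene tek and its orphan partner TIE1 stood at 3.09-fold (2.56 to 3.78) and 4.19-fold (3.9 to 4.51), tek on only 4 and 13 unique reads. ANGPT2, which encodes a ligand of this receptor made by remodelling endothelium, had 10 reads in the control and 354 in HRAS, a fold of 21.5 (12.1 to 47.5), all of them unique. The adrenomedullin receptor was higher in both of its parts: CALCRL, the receptor, went from 3.32 to 14.2 CPM and ramp2, its accessory protein, from 17 to 74.7 CPM, folds of 4.27 (3.42 to 5.44) and 4.4 (3.99 to 4.88). A gene named ADM (ENSDARG00000015263), for the ligand, went from 5.18 to 15.3 CPM, a fold of 2.95 (2.46 to 3.59), beside 2.78 for NICD over the same control. The semaphorin receptor gene plxnd1 was 5.76-fold higher (4.78 to 7.04). The list's lower member was a gene named CXCR4 (ENSDARG00000041959), with 233 and 173 reads and 0.474 of the control level (0.387 to 0.579), while S1PR1 and NRP2, receptors for sphingosine phosphate and semaphorins, had folds of 1.03 (0.973 to 1.09) and 1.07 (1.02 to 1.13).

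Genes of junctions and the endothelial surface had 12 of 25 members higher, 1 lower and a median of 0.88. A gene named CLDN5 (ENSDARG00000014059), for the tight junction protein of vessels, had 490 and 5402 reads, 18.7 and 131 CPM, a fold of 7.03 (6.41 to 7.73), but only 1 and 7 of these reads were unique; a second gene of that name, with unique reads only, had a fold of 1.01 (0.884 to 1.15). The adhesion genes pecam1a and ESAM stood at 2.33-fold (2.09 to 2.6) and 2.87-fold (2.5 to 3.31), on unique reads throughout. The pair of plvap genes, which encode the diaphragm protein of fenestrated endothelium, went opposite ways: plvapb went from 57.6 to 153 CPM, and plvapa from 6.4 to 0.803 CPM. On unique reads the list median was 0.33 over 21 members. Read type and members changed together here, and the part of shared reads in this move was not tested.

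Scavenger and lymphatic endothelial genes, which mark the cells that clear macromolecules from blood and interstitium, had 9 of 18 members higher, none lower and a median of 1.01. The mannose receptor gene mrc1b had 349 and 2677 reads, 13.3 and 65.1 CPM, a fold of 4.89 (4.38 to 5.49), and the clearance receptor gene stab1 went from 63 to 203 CPM, a fold of 3.23 (3.06 to 3.41). The endocytic adaptor gene dab2 stood at 4.01-fold (3.69 to 4.37), with 22 and 279 unique reads. Lysosomal proteases that such cells hold in quantity, but other cells also make, followed at lower folds, ctsla at 2.03 (2 to 2.06) and LGMN at 2.66 (2.55 to 2.77). Neither call held on unique reads, where ctsla stood at 1.76 (1.57 to 1.98) and LGMN had only 5 reads in each library. Partners of RAS and related small GTPases were less often called, with 5 of 48 higher and a median of 0.17. Apart from rasip1 the called members were RHOJ, an endothelial small GTPase, at 3.18-fold (2.43 to 4.29), rin3, a RAB5 exchange factor, at 2.41-fold (2.19 to 2.65), arhgap29a, a GTPase activating protein, at 2.04-fold (1.86 to 2.25), and rassf2b, with 12 and 57 reads.

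Immediate early genes downstream of ERK were higher in 14 of 31 members, lower in none, and had a median of 0.85. FOS, an AP-1 subunit, had 297 and 1865 reads, 11.3 and 45.4 CPM, a fold of 4 (3.54 to 4.55). Its partner JUNB and its relative FOSL2 stood at 3.81-fold (3.33 to 4.4) and 3.41-fold (3.11 to 3.74). NICD over the same control gave 2.22 for FOSL2 and 1.26 for FOS. JUN itself, with unique reads only, had a fold of 1.8 (1.7 to 1.9) and missed the 2-fold limit. The zinc finger gene egr1 went from 39 to 85.4 CPM, the stress factor ATF3 from 12.9 to 35, and hbegfa, a growth factor that acts on the EGF receptor, from 14.7 to 43.8. Phosphatase genes that act on ERK as feedback were higher: DUSP5 went from 7.2 to 33.5 CPM, a fold of 4.64 (3.99 to 5.44) on unique reads throughout, DUSP4 from 10.7 to 23.6 CPM, a fold of 2.21 (1.93 to 2.53), and DUSP6 from 117 to 241 CPM, a fold of 2.06 (1.98 to 2.15). The gene etv5b, for an ETS factor that follows FGF signalling in zebrafish, stood at 0.843 (0.789 to 0.9), and at 0.999 on unique reads. MAPK3, the gene of an ERK kinase, had a fold of 1.04 (0.995 to 1.1).

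Matrix remodelling genes were higher in 9 of 43 members and lower in none, with a median of 0.31. The membrane protease gene adam8a, known from leukocytes, had 162 and 3299 reads, 6.17 and 80.2 CPM, a fold of 13 (11.1 to 15.3), and adam8b stood at 4.14-fold (3.35 to 5.19). A gene named MMP14 (ENSDARG00000008388) and a gene named TIMP2 (ENSDARG00000075261), a membrane metalloprotease and an inhibitor, were 2.07-fold (1.98 to 2.17) and 3.05-fold (2.77 to 3.38) higher, while MMP2, a gelatinase, had a fold of 1.16 (1.12 to 1.2). Structural matrix changed in few genes. Of 48 basement membrane and interstitial matrix genes 2 were higher and 1 was lower. A gene named FN1 (ENSDARG00000006526), for fibronectin, stood out by its level, with 11536 and 61899 reads, 440 and 1510 CPM and a fold of 3.42 (3.36 to 3.49), although only 34 and 263 of these reads were unique. The elastin gene elnb stood at 0.25 of the control level (0.223 to 0.279), with 16 and 13 unique reads. The growth factor gene tgfb1b, which induces matrix genes, had 45 and 629 reads, a fold of 8.83 (6.59 to 12.4).

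**Figure D4:**
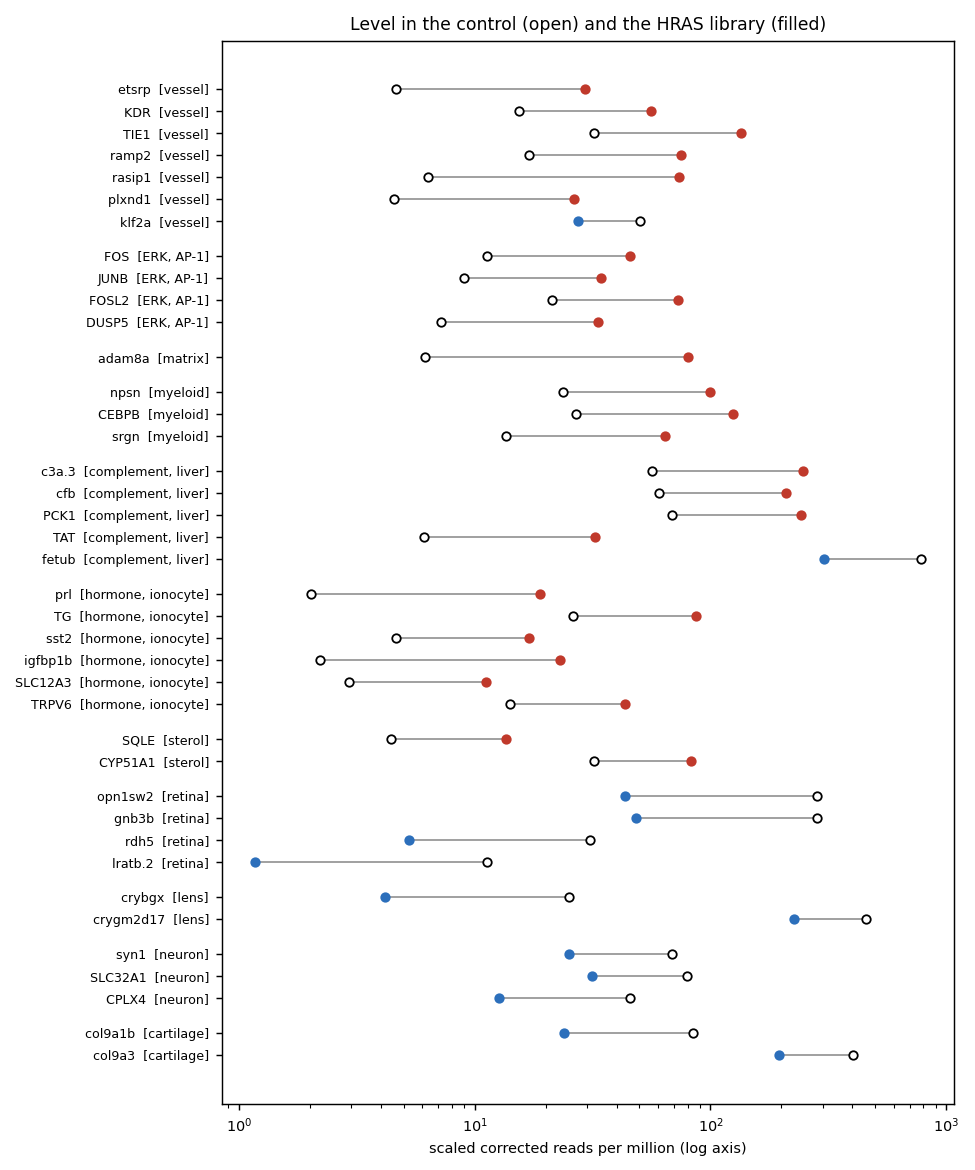
Level of 39 genes in the control library (open circles) and the HRAS library (filled circles, red where higher and blue where lower), in CPM on a log axis, grouped by tissue or process. The endothelial gene etsrp runs from 4.65 to 29.3 and the cone opsin gene opn1sw2 from 283 to 43.6; klf2a is the gene in this plot that did not meet the size rule.

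Among neutrophil genes 13 of 23 were higher, none was lower and the median was 1.07, beside 0.80 for NICD over the same control. The granule protease gene npsn had 622 and 4096 reads, 23.7 and 99.6 CPM, a fold of 4.2 (3.86 to 4.58). CEBPB, a factor of emergency granulopoiesis, and srgn, the proteoglycan of granules, stood at 4.64-fold (4.29 to 5.03) and 4.72-fold (4.23 to 5.29), and itgb2, the leukocyte integrin, at 3.46-fold (3.05 to 3.95). The leukotriene pathway was higher in several members: a gene named ALOX5 (ENSDARG00000043085) had 14 and 270 reads, a fold of 11.9 (7.21 to 22.8), and its activating protein gene ALOX5AP 12 and 73, a fold of 3.75 (2.09 to 7.86). The tandem copy alox5b.2 had no read in the control and 214 in HRAS, which is at least 45.5-fold higher against a floor of 3 reads, and only 15 of these were unique. In the NICD library this copy had 25 reads. CEBPA, the factor of steady myelopoiesis, had a fold of 1.19 (1.11 to 1.27).

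Macrophage genes were higher in 13 of 32 members and lower in none, with a median of 0.90. Several are copies of mfap4, a macrophage marker in zebrafish: mfap4.8 had 3 and 162 reads, a ratio of 29.6 (11.6 to 169), mfap4.7 had 4 and 132, and mfap4.11 had 12 and 195. Most reads of these copies were unique, although the family is large and the counting could have split reads among its members. The scavenger receptor gene marco stood at 3.56-fold (2.71 to 4.81) and the actin regulator CORO1A at 3.07-fold (2.73 to 3.46). The group did not move evenly: csf1rb, a receptor of macrophage growth factor, had 77 and 94 reads, a fold of 0.778 (0.57 to 1.07). Because leukocytes also express FLI1, ETS1 and LMO2, part of the vessel lists is shared with blood, and the part of leukocyte RNA in those values was not tested.

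Red cell genes changed less, with 6 of 30 higher, 1 lower and a median of 0.34. The globin gene hbae1.1 had 4732 and 20033 reads, 180 and 487 CPM, a fold of 2.7 (2.62 to 2.79), and kept this ratio on unique reads, at 2.81. The gene hbae3 held more RNA per length, at 2450 and 2760 RPKM against 338 and 920 for hbae1.1, and had a fold of 1.12 (1.11 to 1.14). SLC25A38, a glycine carrier needed for haem synthesis, was 5.63-fold higher (3.5 to 10.2) at 1 of its 2 genes, beside 6.35 for NICD, and the erythroid factor gene klf1 2.12-fold (1.59 to 2.89). A gene named ANK1 (ENSDARG00000074777), for a skeletal protein of the red cell membrane, was lower, at 0.489 (0.456 to 0.525). Thrombocyte and coagulation genes stood near the background, with 2 of 30 higher and 1 lower; the higher ones were f3b, for tissue factor, at 4.12-fold (3.3 to 5.25), and gp9, with 21 and 122 reads. Lymphoid genes were few. Of 14 measured, 2 were higher and 2 lower, with log2 ratios of 0.26 at the median and 5.06 at the highest. RAG2, the recombinase of developing lymphocytes, had 53 and 21 reads, 0.256 of the control level (0.145 to 0.426). The thymus factor gene foxn1 had 132 and 103 reads, 0.499 (0.381 to 0.649), whereas the thymus homing receptor CCR9 had 35 and 188, a fold of 3.39 (2.38 to 5.07).

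Inflammatory signalling was higher in 10 of 28 cytokine genes and 4 of 16 interferon genes, with medians of 0.78 and 0.68 and no member of either lower. On unique reads 9 of 24 cytokine genes and 1 of 11 interferon genes were higher, with medians of 0.92 and 0.75. The NICD medians of these lists were 0.36 and 0.39. The gene tnfaip2b, induced by tumour necrosis factor in mammals, had 41 and 1080 reads, 1.56 and 26.3 CPM, a fold of 16.6 (12.3 to 23.6). The 2 genes named SOCS3, inhibitors of STAT3 signalling, stood at 2.39-fold (2.11 to 2.73) and 3.44-fold (3.08 to 3.85), beside 2.18 and 2.36 for NICD. STAT3 itself stood at 2.22-fold (2.07 to 2.38), but on its 77 and 195 unique reads at 1.62 (1.24 to 2.15), under the limit. NICD over the same control gave 1.86 for STAT3. Both genes named PTGS2, for inducible cyclooxygenase, were higher, at 2.57-fold (2.34 to 2.83) and 3.09-fold (2.53 to 3.83). Of the interferon response isg15 had 9 and 104 reads, a fold of 7.02 (3.74 to 16.6).

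Complement and acute phase genes, made mainly by the liver, were higher in 11 of 30 members with a median of 0.57, or 0.35 on unique reads, beside 0.43 for NICD. The complement component gene c3a.1 had 10923 and 41851 reads, 416 and 1020 CPM, a fold of 2.45 (2.39 to 2.5), with 235 and 952 unique reads. Its tandem copy c3a.3, mostly on unique reads, went from 56.3 to 246 CPM, a fold of 4.36 (4.13 to 4.61). The alternative pathway factor cfb stood at 3.48-fold (3.3 to 3.68), the terminal pathway genes c6.1 and c6.2 at 4.05-fold (3.37 to 4.93) and 3.92-fold (3.48 to 4.43), and CP, for the copper carrier ceruloplasmin, at 3.3-fold (3.14 to 3.47), which was 3.44 in NICD. The 3 fibrinogen chains moved together below the limit, with folds of 1.83 for fga, 1.71 for FGB and 1.89 for FGG. NICD over the same control gave 1.67, 1.52 and 1.67 for these genes. In the other direction fetub, a secreted protease inhibitor of the liver, had 20417 and 12411 reads, nearly all unique, or 778 and 302 CPM. It stood at 0.388 of the control level (0.379 to 0.397). The transferrin gene tfa stood at 0.589 (0.581 to 0.597), beside 0.597 for NICD. Only 32 and 8 of the tfa reads were unique, and on these its fold was 0.168 (0.064 to 0.356).

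Liver genes as a whole did not move in 1 direction: of 47 members 7 were higher, 2 were lower, and the median was -0.02. Among the higher ones were genes for enzymes of gluconeogenesis and of amino acid metabolism. PCK1, which commits oxaloacetate to gluconeogenesis, had 1808 and 9953 reads, 68.9 and 242 CPM, a fold of 3.51 (3.34 to 3.7). TAT, which degrades tyrosine, went from 6.1 to 32.4 CPM, a fold of 5.29 (4.5 to 6.29), and a gene named AGXT (ENSDARG00000018478), an aminotransferase of glyoxylate and alanine, from 30 to 76.4 CPM. The glucose-6-phosphatase gene g6pc1a.1 stood at 2.62-fold (2.15 to 3.24), with few unique reads. NICD over the same control gave 3.41 for PCK1, 2.13 for TAT, 4.16 for AGXT and 2.96 for g6pc1a.1. No plasma lipoprotein gene named here was called. APOB stood at 0.557 (0.546 to 0.568) and apobb.2 at 0.508 (0.478 to 0.54), whereas apoa1a stood at 1.04 (1.03 to 1.05), apoeb at 1.19 (1.17 to 1.21) and apobb.1, the most read of them with 145375 and 269916 reads, at 1.18 (1.18 to 1.19).

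Glucose use showed changes in single genes and none in the pathway: of 56 glycolysis and glucose genes 5 were higher and 3 lower, and the median was -0.13. PFKFB3, which raises the activator of phosphofructokinase, had 438 and 2249 reads, a fold of 3.27 (2.96 to 3.64), beside 2.39 for NICD. A gene named SLC2A1 (ENSDARG00000001437), for a glucose transporter of brain vessels and glia in mammals, had 302 and 70 reads, all unique, and stood at 0.149 (0.112 to 0.192), beside 0.25 for NICD, while the second gene of that name had a fold of 1.19 (1.09 to 1.29). A gene named SLC16A1 (ENSDARG00000016963), for a lactate carrier, stood at 0.19 (0.146 to 0.243), beside 0.467 for NICD, and the second at 1.12 (1.06 to 1.19).

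Single hormone genes were higher. Of 25 pituitary, thyroid and steroid genes 6 were higher and none was lower, although the list median was 0.12. The prolactin gene prl had 53 and 775 reads, all unique, 2.02 and 18.9 CPM, a fold of 9.25 (7.06 to 12.6). Growth hormone gh1 and POMC, the precursor of corticotropin, stood at 2.26-fold (1.82 to 2.87) and 2.95-fold (2.43 to 3.64). TG, the thyroglobulin from which thyroid hormone is made, went from 26.1 to 86.4 CPM, a fold of 3.31 (3.05 to 3.6), and TSHB, the pituitary hormone that drives it, had 19 and 84 reads, almost none of them unique. Of 21 genes of the endocrine pancreas and its hormones 3 were higher and 1 was lower, 13 lay below 0 and the median was -0.28. The higher ones encode hormones: gcga, for glucagon, stood at 3.35-fold (2.75 to 4.14), beside 2.36 for NICD, a gene named GCG (ENSDARG00000040907) at 2.48-fold (1.97 to 3.19) and sst2, for a somatostatin, at 3.64-fold (3.01 to 4.46), while ins, for insulin, had a fold of 1.44 (1.23 to 1.69). The binding protein gene igfbp1b, which holds insulin-like growth factors and rises on fasting and hypoxia in fish, had 58 and 945 reads, a fold of 10.3 (7.97 to 13.8). Of 20 genes of the insulin-like growth factor axis 2 were higher, with a median of 0.24, beside 0.36 for NICD. NICD over the same control gave 3.4 for igfbp1b and 2.92 for prl. It gave 1.77 for TG, 1.76 for sst2 and 1.22 for gh1.

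Ionocytes, the skin cells by which zebrafish larvae take up salt and calcium, showed 12 of 42 genes higher and 3 lower, with a median of 0.31 on corrected reads and 0.04 on unique reads. The median for NICD over the same control was 0.39. The sodium chloride cotransporter gene SLC12A3 had 77 and 459 reads, 2.93 and 11.2 CPM, a fold of 3.78 (2.98 to 4.91), and its relative slc12a10.2 stood at 2.63-fold (2.4 to 2.89), both nearly all on unique reads. The calcium channel gene TRPV6 went from 14.1 to 43.6 CPM, a fold of 3.09 (2.77 to 3.47), beside 3.79 for NICD. Regulators were nearer the limit: foxi3b, a factor that specifies ionocytes, stood at 2.05-fold (1.76 to 2.39), GCM2 at 2.01-fold (1.71 to 2.37) and STC1, a hormone that lowers calcium uptake in fish, at 2.44-fold (2.09 to 2.87). Of 7 genes named KCNJ1, for a potassium channel, 4 were higher, with 14 to 72 reads in the control and 289 to 724 in HRAS. They share reads, and on unique reads their folds lay between 3.71 and 4.27. The calcium pump gene atp2b1b was lower, at 0.381 (0.354 to 0.411).

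Of 25 cholesterol genes 5 were higher, none was lower, and the median was 0.52. SQLE, which makes squalene epoxide, had 116 and 559 reads, 4.42 and 13.6 CPM, a fold of 3.07 (2.51 to 3.79). Also called were the enzyme genes LSS at 2.52-fold (2.06 to 3.14), CYP51A1 at 2.55-fold (2.37 to 2.76) and TM7SF2 at 2.41-fold (2.04 to 2.85), and insig1, a brake on the pathway that is itself induced with it, at 2.41-fold (2.23 to 2.61). The enzyme genes FDPS and IDI1 had folds of 1.47 and 1.4, under the limit, and srebf2, the factor that controls them, 1.29.

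Stress lists differed in their share of genes called higher, beside 6.09% of all genes. It was 13.2% for unfolded protein and integrated stress, 14% for p53, 17.6% for hypoxia, 4.35% for heat shock and 2.78% for oxidative stress. Of 38 unfolded protein and integrated stress genes 5 were higher and none lower, with a median of 0.14. All 5 are known in mammals as members or targets of the ATF4 branch: DDIT3 went from 23.1 to 50.3 CPM, a fold of 2.18 (1.99 to 2.39), TRIB3 from 26.3 to 59.9, atf5b from 20.3 to 45.2, sesn2 from 8.5 to 21 and nupr1a from 25.7 to 55.6. The gene atf4b, for ATF4 itself, had 6331 and 9753 reads, all unique, and a fold of 0.983 (0.952 to 1.01). Activity of the branch was not tested. The chaperone gene HSP90B1 of the endoplasmic reticulum had a fold of 1.11 (1.07 to 1.14). Among 43 genes of the p53 response, arrest and apoptosis 6 were higher and none lower, with a median of 0.34. BTG2, an antiproliferative gene, stood at 2.38-fold (2.21 to 2.56), the survival gene mcl1a at 2.08-fold (1.96 to 2.22) and the killer gene bbc3 at 2.01-fold (1.7 to 2.39). SESN1 stood at 2.08-fold (2 to 2.17), but on its 64 and 173 unique reads at 1.73 (1.3 to 2.35), under the limit. Other targets of p53 were nearer the control, mdm2 at 1.9 (1.76 to 2.06) and CCNG1 at 1.12 (1.09 to 1.14). Hypoxia genes were higher in 6 of 34 members and lower in 2, with DDIT4 at 2.09-fold (1.89 to 2.31) and adm2a at 3.52-fold (3.01 to 4.16). The list median was 0.22, beside 0.17 for NICD, and the lowest log2 ratio was -2.75. The hypoxia factor genes HIF1A and EPAS1 stood at 0.922 (0.887 to 0.958) and 0.92 (0.888 to 0.953). Of 46 heat shock genes only hsp70.3 and hsp70.1 were higher, at 4.75-fold (4.18 to 5.42) and 2.85-fold (1.73 to 5.15), and these copies share most of their reads.

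Photoreceptor genes had the lowest medians of the 57 lists. Of 26 rod genes 23 were lower and none higher, with a median of -1.66, and of 25 cone genes 18 were lower and none higher, with a median of -2.05. GNAT1, the rod transducin, had 1537 and 503 reads, all unique, 58.6 and 12.2 CPM, and stood at 0.209 (0.188 to 0.231), and one of the genes named PRPH2, for a protein of the outer segment discs, at 0.167 (0.154 to 0.181). The cone opsin genes were lower to a like degree, opn1sw2 at 0.154 (0.146 to 0.162), opn1mw2 at 0.157 (0.15 to 0.165) and opn1lw2 at 0.22 (0.213 to 0.226), as was gnb3b, the cone transducin beta subunit, at 0.172 (0.164 to 0.181). The factor gene crx, which drives photoreceptor genes, was less reduced, from 108 to 40.9 CPM and 0.378 of the control level (0.355 to 0.401). In the NICD library, which shares this control, the medians of the rod and cone lists were -1.26 and -1.31. For these lists a control library that stands apart and an effect of either line therefore cannot be told apart. Single genes differed in this: NICD over the same control gave 0.235 for opn1sw2 and 0.225 for gnb3b, but 0.829 (0.782 to 0.878) for crx.

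Of 33 genes of the pigment epithelium and visual cycle, which serve photoreceptors, 14 were lower and 1 was higher, with a median of -0.59. The NICD median of this list was -0.49, and the same limit applies. The gene lratb.2, for an enzyme that esterifies vitamin A, had 296 and 48 reads, all unique, and stood at 0.104 (0.0746 to 0.141). A gene named RPE65 (ENSDARG00000007480), for the isomerase of the cycle, stood at 0.256 (0.242 to 0.271), whereas the other 2 genes of that name had folds of 0.632 and 0.794. Of 28 pigment cell genes 1 was lower and 20 lay below 0, with a median of -0.17. The lower one was pmelb, for a protein of the melanosome, at 0.415 (0.388 to 0.444), while its paralog pmela stood at 0.985 (0.961 to 1.01) and DCT, an enzyme of melanin synthesis, at 0.662 (0.636 to 0.689). The inner retina had 6 of 42 genes lower and 1 higher, with a median of -0.51. In the lens 12 of 44 genes were lower and none higher, with a median of -0.60. The NICD medians of these lists were -0.26 and -0.23. The 2 genes named MIP, the lens water channel, stood at 0.32 and 0.411, and the crystallin gene crybgx at 0.167 (0.14 to 0.198). NICD over the same control gave 0.975 and 0.879 for the MIP genes and 0.2 for crybgx. The abundant gamma crystallins of the M2 family were reduced less and unevenly, from 0.274 for crygm2d11 through 0.493 for crygm2d17 to 0.815 for crygm2d4, and they share reads.

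Of 67 neuronal genes 60 lay below 0, 10 were called lower, none was called higher, and the median was -0.51. The synaptic vesicle gene syn1 had 1800 and 1027 reads, 68.6 and 25 CPM, and stood at 0.364 (0.337 to 0.393). SLC32A1, the vesicular carrier of GABA and glycine, stood at 0.398 (0.371 to 0.426), and CPLX4, a complexin of retinal ribbon synapses, at 0.278 (0.25 to 0.308). General neuronal genes stood closer to the control, ELAVL3 at 0.791 (0.76 to 0.822), GAD2 at 0.703 (0.67 to 0.738) and mapta at 0.758 (0.732 to 0.785). The retina holds many of these genes too, and its part in the neuronal values was not tested. Glial genes were near the background, with 1 of 26 higher and 2 lower: GFAP had a fold of 1.33 (1.29 to 1.38) and a gene named SLC1A2, a glutamate carrier, stood at 0.36 (0.304 to 0.425). In hair cells 4 of 36 genes were lower and none higher, with POU4F3, their survival factor, at 0.338 (0.255 to 0.443) on 157 and 83 reads. In the NICD library the neuronal median was 0.11.

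Cartilage, bone and fin genes had 6 of 47 members lower, 1 higher and a median of -0.35, and the lower ones were proteins of cartilage matrix. A gene named COL2A1 (ENSDARG00000069093), the main cartilage collagen, had 100174 and 60668 reads, 3820 and 1480 CPM, and stood at 0.387 (0.383 to 0.39), with 3415 and 2399 unique reads. The minor cartilage collagens followed, COL11A2 at 0.379 (0.37 to 0.388), col9a1b at 0.284 (0.263 to 0.307) and col9a3 at 0.485 (0.471 to 0.499). One of the genes named MATN3, a matrilin, stood at 0.189 (0.17 to 0.209), but none of its reads was unique. The collagen of skin and bone changed less, with col1a1a at 0.818 (0.812 to 0.823). In the NICD library the median of this list was 0.26.

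Digestive organs were lower in part. Of 22 exocrine pancreas genes 6 were lower and none higher, with a median of -0.40. The called ones were proteases, lipases and an amylase, among them prss59.1 at 0.354 (0.311 to 0.402) and ela2 at 0.423 (0.317 to 0.56), none of whose reads was unique. Other enzymes of the same cells were not lower: prss1, a trypsin, had 1848 and 2895 reads and a fold of 1 (0.943 to 1.06), CELA1, an elastase, 1.5 (1.4 to 1.62), and a gene named CPA1 (ENSDARG00000021339), a carboxypeptidase, 1.4 (1.3 to 1.51). For the exocrine list 2 of 16 genes were lower on unique reads, with a median of -0.22, and the NICD median was -0.53. In the gut 6 of 35 genes were lower and 3 higher, with a median of -0.18, beside -0.22 for NICD. The limit given for photoreceptors applies to both lists. SLC10A2, the bile acid carrier of the distal gut, had 85 and 35 reads, 0.265 of the control level (0.172 to 0.394), and lrp2b, an endocytic receptor of gut and kidney, 79 and 23 reads, while FABP2 and VIL1, general markers of enterocytes, had folds of 0.913 (0.872 to 0.956) and 1.11 (1.06 to 1.17).

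Muscle was close to the control. Of 49 fast muscle genes 2 were lower and none higher, with a median of -0.10, and the myosin gene myhz1.1, with 393974 and 616744 reads, had a fold of 0.999 (0.995 to 1). Slow muscle and heart genes went both ways, 4 of 36 higher and 4 lower. The higher ones were natriuretic peptide genes, nppa at 2.74-fold (2.41 to 3.14), nppb with 13 and 144 reads at 6.83-fold (4.01 to 13.6) and nppc at 2.64-fold (1.82 to 4), and the atrial myosin gene myh6 at 2.05-fold (1.79 to 2.36). No read of nppa was unique, and NICD over the same control gave 2.76 for nppa and 6.39 for nppb. A gene named CKMT2 (ENSDARG00000069615), a mitochondrial creatine kinase, stood at 0.242 (0.226 to 0.26), beside 0.301 for NICD, and its namesake at 0.703 (0.677 to 0.73). Skin genes had 2 of 40 members higher, 1 lower and 33 above 0, with a median of 0.41. The keratin gene krt8 stood at 1.64 (1.62 to 1.67) and krt18a.1 at 2.11 (2.05 to 2.17), but on only 10 and 16 unique reads the latter had a fold of 1.01 (0.439 to 2.54).

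Growth and housekeeping groups were held within narrow limits. The 32 proteasome genes had log2 ratios from -0.26 to 0.29 and a median of -0.03. Of 67 ribosomal protein genes none was called, 65 lay above 0, and the median was 0.13; RPL3, a large subunit protein, had a fold of 1.19 (1.17 to 1.2). Of 69 oxidative phosphorylation genes 68 lay below 0, the median was -0.24, and 2 of low level were called lower; ATP5F1B, an ATP synthase subunit, stood at 0.793 (0.783 to 0.804). Medians of this size lie within the interquartile range of all genes, which ran from -0.28 to 0.31, but within both groups the sign was nearly uniform. NICD over the same control gave medians of -0.28 for oxidative phosphorylation, -0.16 for ribosomal proteins and -0.34 for the proteasome. For oxidative phosphorylation a control library that stands apart and an effect of either line therefore cannot be told apart. Ribosome biogenesis, with a median of -0.12, did not follow the ribosomal proteins. The only listed cell cycle gene called was pttg1, a securin gene with 1 and 71 reads. Its ratio was 30.4 (7.87 to 1810), and 33.7 in NICD. The 46 genes of G1 and S phase had a median of -0.18, with 36 below 0. The 42 of mitosis had one of -0.06, with mki67 at 0.877 (0.849 to 0.906). The NICD medians of these lists were -0.38 and -0.34, and the limit given for oxidative phosphorylation applies to G1 and S phase too. No clock gene was called, with a median of -0.05 over 39.

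**Figure D5:**
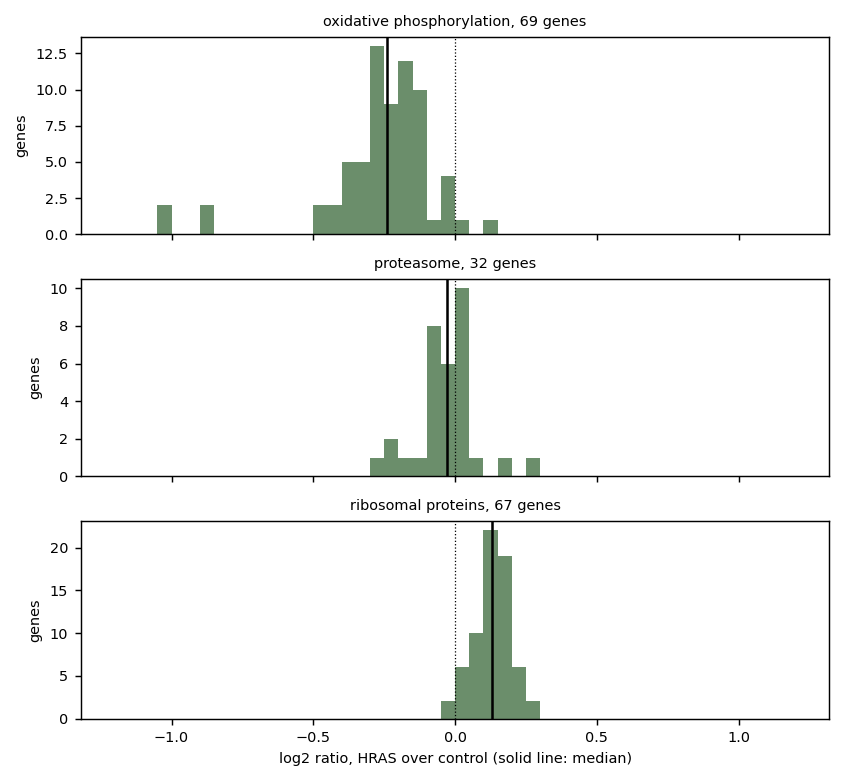
Number of genes at each log2 ratio of HRAS over control, in bins of 0.05, for oxidative phosphorylation (69 genes), proteasome (32 genes) and ribosomal proteins (67 genes); the solid line is the median and the dotted line is 0. The medians are -0.24, -0.03 and 0.13, and 68 of 69 oxidative phosphorylation genes lie left of 0 where 65 of 67 ribosomal protein genes lie right of it.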

How the data were processed

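Whole larvae were sequenced in 3 libraries, control, HRAS and NICD, 1 per group, so grouping follows the genotype label. Per the labels' protocols, total RNA (Trizol) went into an Illumina TruSeq kit; per the series' design text, HiSeq 2000 reads were assigned by CLC bio Assembly Cell 3.2 to Ensembl release 63 cDNAs of Zv9. CASAVA 1.8 stands in the submitters' processing notes. The sources used here do not give mapping settings or strand use, so a gene and an antisense partner cannot be told apart. The authors deposited, per the file headers, unique and non-unique read counts, an expected count (corrected total reads, whole numbers as deposited) and RPKM. Symbols came from a gene name table and matched 19635 of 27882 identifiers; capital symbols do not tell paralogs apart.

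Corrected reads were scaled by TMM factors over the 3 libraries (edgeR 4.0.16, R 4.3.3), and 0.5 reads were added to each library before ratios. Intervals (SciPy 1.17.1) cover counting error only, since PCR copies of a molecule could not be told apart. A floor of 3 reads is 0.114 CPM in the control and 0.073 CPM in HRAS. The size rule was tested on data simulated with counting error only. That test cannot show how often variation between larvae would lead to a call. Alternatives were library totals, DESeq2 1.42.0 size factors, upper quartile factors, TMM over 2 libraries, unique reads, no minimum or 200 reads, 5 reads added, 1.5-fold and 4-fold limits, and thinning. Named genes are, of each list, the 6 most read members and up to 6 called ones with the largest ratio and at least 100 reads in the higher library, the 15 highest and 15 lowest named genes, and the transgenes' genes; further genes were chosen after their values were seen. Members and lists were chosen with earlier results of these data known. Of the listed symbols 413 were not matched. No genome was used, so no coordinates or sequences are given.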

Additional observations from a re-analysis of the deposited data

How the results depend on the processing

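No paired analysis was possible because each group is 1 library and carries no replicate number, and for the same reason no library could be left out in turn. The count of genes higher in HRAS, 1272, and the count of genes lower in HRAS, 865, varied more over the limits than over the scalings. With no minimum of reads they were 1933 and 1550 of 25909, with at least 200 reads 669 and 452 of 16865, at 1.5-fold 2709 and 2274, and at 4-fold 291 and 134. The other settings stayed within 1.5 times: library totals gave 1286 and 849, DESeq2 size factors or upper quartile factors 1243 and 893, TMM over 2 libraries 1272 and 865, unique reads 1006 and 710, 5 reads added 1088 and 838, and thinning of the HRAS library 1109 and 828. Scaling moved list medians by at most 0.02. Unique reads moved them by -0.66 to 0.18 and the minimum of 200 reads by -0.41 to 0.25. The lymphoid median turned from 0.26 to -0.40 on unique reads, over 7 genes, and to -0.15 with at least 200 reads, over 6; the cause was not tested. The ribosomal median went from 0.13 to 0.11 on unique reads and with DESeq2 or upper quartile factors. Of 460 named genes that unique reads could measure, 143 moved by more than their interval. Of the 200 called among them 187 were called the same way again and none changed sign, while 8 that were not called lay beyond 1 on opposite sides by both intervals, among them cyt1l at 1.15 and 0.922, tpm3 at 0.977 and 1.08, and NDRG1 at 1.06 and 0.756. Depth limits genes under 200 reads most, and 1 library per group limits every value.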

Other observations

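Gene families were also grouped by the stem of their symbols, after values had been seen. The ms4a17a genes, a tandem family of membrane proteins, were higher in 7 of 10 measured members and lower in none, with a median log2 ratio of 1.22. The highest of those looked at, ms4a17a.10, had 13 and 102 reads, and ms4a17a.5 had 76 and 369, a fold of 3.08 that was 1.64 on unique reads and 2.87 for NICD over the same control; members share reads. The ftr genes, which encode finTRIM proteins of fish, were higher in 11 of 32 members and lower in none, with a median of 0.55; ftr72 had 5 and 49 reads.

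No gene of 4 cilium stems was called: the 24 cfap genes, named for cilia and flagella, had a median of 0.52, the 13 ift genes of ciliary transport -0.14, the 6 dnaaf genes of dynein arm assembly -0.32 and the 8 bbs genes -0.68. Of 10 dnah genes, for axonemal dynein heavy chains, 2 were higher, dnah5l among them with 128 and 511 reads and a fold of 2.54 (2.1 to 3.12). Calcium channel genes with the stem cacna were lower in 7 of 20, with a median of -0.73; cacna1fa, the channel of photoreceptor synapses, stood at 0.32 (0.283 to 0.361) of the control level. Neurexin genes (nrxn) and neuroligin genes (nlgn), the partners across a synapse, had medians of -0.83 and -0.77 with 2 of 6 and 1 of 6 lower.

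Among the genes with extreme ratios, the gene si:dkey-6n3.3 had 2 reads in the control and 565 in HRAS, a ratio of 144 (49.7 to 1490), and 502 of the HRAS reads were unique. In the other direction camk1ga, for a calcium-dependent kinase, had 148 and 14 reads, 0.0623 of the control level (0.0322 to 0.105). Beyond the lists, BCL6B, a transcriptional repressor, had 105 and 3170 reads, a fold of 19.2 (15.9 to 23.6), GPR183, a receptor that guides immune cells by oxysterols in mammals, 14 and 423 reads, a fold of 18.6 (11.4 to 35.6), and ITLN1, a lectin, 9 and 347 reads, a fold of 23.3 (12.8 to 54.3), which was 16 in NICD. A gene named ANKRD1 (ENSDARG00000076192), for a stretch-responsive muscle protein, had 1284 and 262 reads and stood at 0.13 (0.114 to 0.149). NICD over the same control gave 19.3 for si:dkey-6n3.3, 0.22 for camk1ga and 0.243 for this ANKRD1 gene. It gave 1.53 for BCL6B and 1.11 for GPR183.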
